A study of Homo sapiens with 2 samples.

Results

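Edited positions were examined in the transcript loci of long non-coding RNA (lncRNA) genes. A locus was a group of overlapping isoforms from the long reads of both libraries, named by a PacBio identifier. Each locus was given the GENCODE gene with which its merged exons shared the most bases on the same strand, and it was kept where that gene was typed lncRNA. Of 1233 lncRNA loci with an isoform model, 618 had a listed position in at least 1 library, out of 12178 listed loci in all. They belonged to 614 genes. Of the 618 loci, 445 were in the table of the RBFOX2 library and 438 in that of the enzyme-only library, and 265 were in both.

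HEK293T cells, a human embryonic kidney line whose cell line field in the labels reads HEK293XT, were fixed in methanol in both samples, and both received a fusion of the cytidine deaminase APOBEC1 with a nanobody against rabbit antibodies. The RBFOX2 sample had also received a rabbit antibody against RBFOX2, and the enzyme-only sample had not, so that it gives the background of editing. Each group was 1 library of 1 cell line, and no difference between them has a replicate check. Intervals are 95% Clopper-Pearson intervals that cover counting error only, because there is no replicate. The reads have no molecular identifiers here, so copies of 1 molecule cannot be told apart. Of 7 genes known from HEK293 lines, KRT18, NEFL, NEFM and SOX4 were listed in both libraries, VIM in RBFOX2 alone, KRT8 in enzyme-only alone and NES in neither. Of 8 genes of differentiated kidney 1 was listed, LRP2, at 8 and 12 reads. A gene is listed only where it has an edited position, so a missing listing does not show that the gene was not expressed.

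LncRNAs are transcripts over the length of small RNAs that are not known to be translated. They include hosts that carry small nucleolar RNAs or microRNAs in their introns or exons, transcripts antisense to or divergent from coding genes, and RNAs that bind proteins themselves. RBFOX2 regulates splicing and RNA stability, and its RNA-binding domain recognizes UGCAUG. APOBEC1 converts cytosine to uracil and prefers a cytosine that follows A or U, so a bound antibody leaves C-to-U changes in the RNA near its target.

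Edited positions that lay close to UGCAUG are shown first, because the comparison of the libraries turns on them. The sequences are from hg38 on the strand of the RNA, with T for U, and capitals mark UGCAUG and each cytosine listed with RBFOX2 but not in the enzyme-only table. All lay in exons of loci that overlapped no protein-coding gene on the same strand.
ENSG00000285725, chr7:97966440-97966462, minus strand: atctTGCATGttgtgaCaCcttc
C10orf95-AS1, chr10:102455652-102455673, plus strand: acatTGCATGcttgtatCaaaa
TMEM161B-DT, chr5:88272463-88272491, plus strand: ccTGCATGggattagtgcctttaCaaCaa
TMEM161B-DT, chr5:88272339-88272353, plus strand: tagaCTGCATGtttg
ENSG00000270055, chr15:30490156-30490170, plus strand: tagaCTGCATGaaat
LINC01003, chr7:152464962-152464978, plus strand: atttCccTGCATGgtgg
ENSG00000260400, chr10:68700445-68700462, plus strand: gaatTGCATGttaCttga

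The next sequences show the pair of positions with the most converted reads in NORAD, an abundant cytoplasmic lncRNA. They are shown because NORAD had the most edited positions of any lncRNA locus in the RBFOX2 library, with UGCAUG nowhere in its exon.
NORAD, chr20:36049871-36049899, minus strand: tatgctagactggtCatatttagaagaca
NORAD, chr20:36047467-36047495, minus strand: cttatagctgtCCaCggggttggtagagg

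LncRNA loci held a small part of the edited positions, and the part was alike in both libraries. The RBFOX2 table listed 1982 distinct positions in lncRNA loci, 1.63% (1.56 to 1.70%) of its 121930 positions. The enzyme-only table listed 1640, 1.58% (1.51 to 1.66%) of 103684. The loci were shallow, with a median of 23.0 reads in each library, against 124 and 115 in protein-coding loci. In 5 lncRNA loci a library had over 500 reads, where 1 converted read no longer suffices for a listing, because positions are listed where converted reads exceed 0.002 of the reads of the locus. The median locus had 3 listed positions over both libraries, 179 loci had 1, and the most any had was 80, in NORAD. Most positions rested on a single read: 6.56% (5.51 to 7.74%) of the RBFOX2 positions and 7.20% (5.99 to 8.55%) of the enzyme-only positions had at least 2 converted reads. The share of all exonic cytosines of a locus that were listed, called editsC, had a median of 0.488% over the loci of the RBFOX2 table and of 0.417% over those of the enzyme-only table.

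Loci with 20 to 500 reads in both libraries, 177 lncRNA and 6116 protein-coding loci, were closer in depth. Their median reads still differed, at 73.0 and 65.0 for lncRNA and 130 and 118 for protein-coding loci. There the lncRNA loci carried 73.9 positions per 1000 reads with RBFOX2 and 64.7 with enzyme alone. Protein-coding loci carried 102 and 92.3 and had more exonic cytosines, a median of 772 against 604. Repeat editing differed between the classes in the RBFOX2 library and not beyond its interval in the enzyme-only library. Positions with at least 2 converted reads were 5.48% (4.30 to 6.86%) of the RBFOX2 positions and 5.89% (4.54 to 7.48%) of the enzyme-only positions in lncRNA loci, whose intervals overlap. In protein-coding loci they were 8.95% (8.77 to 9.12%) and 5.84%. The RBFOX2 interval of the lncRNA loci lay below that of the protein-coding loci, and the part of the remaining gap in depth was not tested.

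Positions in lncRNA loci of the RBFOX2 library lay near UGCAUG more often than the cytosines of the same exons. For this count, positions listed in both libraries were left out, and a position was near where the closest base of UGCAUG on the same strand was at most 50 nt away. In the RBFOX2 library 75 of 1764 positions were near, 4.25% (3.36 to 5.30%), where the exonic cytosines of the same loci gave 2.48%. The ratio of observed to expected was 1.71 (1.35 to 2.13). In the enzyme-only library 29 of 1420 positions were near, 2.04% (1.37 to 2.92%), against 2.22% of cytosines, a ratio of 0.918 (0.617 to 1.31). The intervals of the ratio did not overlap. However, they treat positions as independent, though 1 read can carry several, and take the expected share as fixed, so they may be too narrow. Protein-coding loci gave 1.53 (1.48 to 1.58) with RBFOX2 and 0.951 (0.910 to 0.993) with enzyme alone, so that the lncRNA interval included the protein-coding ratio.

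Of the distance ranges counted, the ratio was highest at 1 to 10 nt from the hexamer. From 1 to 10 nt, 25 positions of the RBFOX2 library stood against 8.41 expected, a ratio of 2.97 (1.93 to 4.38). From 11 to 20 nt the ratio was 1.79 (1.03 to 2.91), and from 21 to 50 nt it was 1.34 (0.928 to 1.88). Farther out it was 1.15 (0.849 to 1.51) at 51 to 100 nt and 1.29 (1.06 to 1.56) beyond 100 and up to 200 nt, so it did not fall steadily. Within the hexamer itself 1 position was listed against 1.95 expected. The enzyme-only library had 7 positions from 1 to 10 nt, a ratio of 1.13 (0.456 to 2.33). Protein-coding loci had 1.85 (1.74 to 1.97) from 1 to 10 nt in the RBFOX2 library, and this interval overlapped that of the lncRNA loci.

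**Figure D1:**
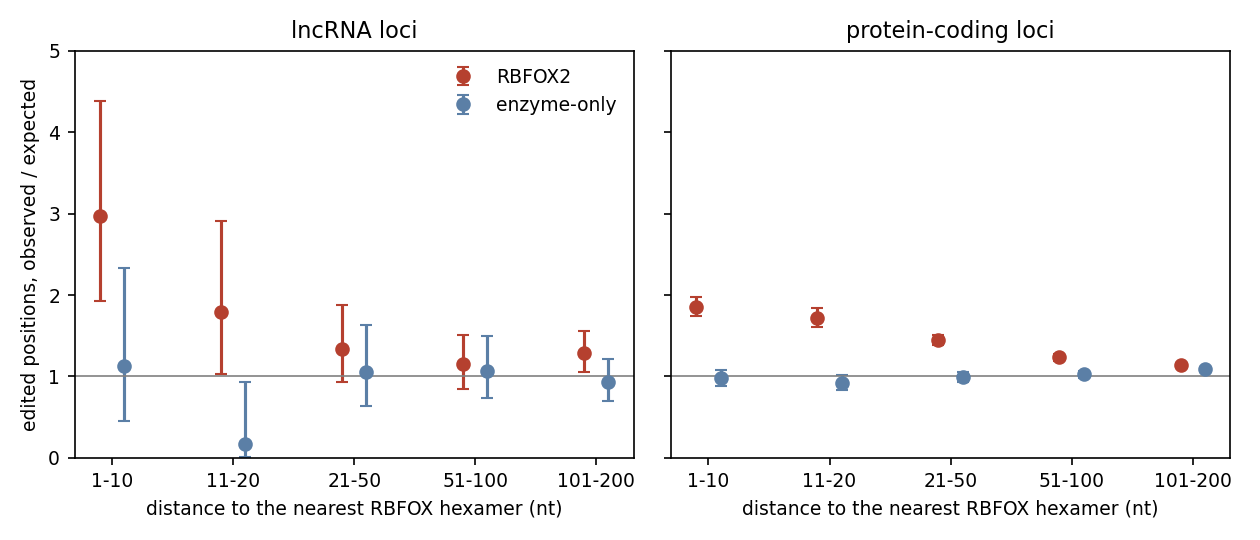
Observed over expected number of edited positions by distance to the nearest UGCAUG in nt, for lncRNA loci on the left and protein-coding loci on the right, in the RBFOX2 and enzyme-only libraries. Bars are 95% Clopper-Pearson intervals. In lncRNA loci the RBFOX2 points fall from 2.97 at 1 to 10 nt to 1.34 at 21 to 50 nt, and the enzyme-only point at 1 to 10 nt is 1.13.

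The near positions were spread over 47 loci with RBFOX2 and 23 with enzyme alone, with C10orf95-AS1, ENSG00000260196, ENSG00000260400 and ZNF503-AS2, 4 loci, in common. Only the 265 lncRNA loci listed in both tables could be in common. In 8 loci the RBFOX2 library had 3 or more near positions, together 28 of the 75, and in the enzyme-only library 1 locus did, ENSG00000260196, with 3 of 7 positions against 1 of 14 in the RBFOX2 library. Repeat editing went with the hexamer in few positions: of 79 RBFOX2 positions with at least 2 converted reads, 5 were near, 6.33% (2.09 to 14.2%) against 1.60% of cytosines, a ratio of 3.95 (1.30 to 8.84). None of the 12 with 3 or more converted reads was near, an interval that reaches 26.5%. The 5 RBFOX2 positions lay in 4 loci. In the enzyme-only library 1 of 65 positions with at least 2 converted reads was near, a ratio of 0.739 (0.0187 to 3.98). This interval overlaps that of the RBFOX2 library.

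ENSG00000285725, a lncRNA without a gene symbol at chr7:97966295-97972344 on the minus strand whose locus overlapped 4 annotated genes, none of them protein-coding, had the most near positions. At 230 reads in the RBFOX2 library, 5 of its 21 unshared positions lay 7 to 38 nt on the 3′ side of the only UGCAUG of its exons. The positions 97966446 and 97966444 had 2 converted reads each, and 97966438, 97966425 and 97966415 had 1. In the enzyme-only library, at 183 reads, none of its 14 unshared positions was near. Its overall number of positions differed little between the libraries, with a log2 ratio of 0.30 (-0.72 to 1.41).

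C10orf95-AS1, antisense to C10orf95, had 4 near positions out of 13 in the RBFOX2 library at 90 reads. They lay 8, 24, 29 and 39 nt on the 3′ side of UGCAUG, and the first, chr10 position 102455669, had 2 converted reads. The enzyme-only library, at 97 reads, had 2 near positions out of 5, and 1 of them was a cytosine of the hexamer itself. This locus was thus edited near the hexamer in both libraries.

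TMEM161B-DT, divergent from TMEM161B, had 10 positions at 144 reads in the RBFOX2 library, 3 of them near. Position 88272343 lay 1 nt before one hexamer, and 88272486 and 88272489 lay 16 and 19 nt after another. The locus was not listed in the enzyme-only table, which gives no reads for loci without a position, so no ratio can be formed. ENSG00000270055, on chromosome 15, had 4 near positions out of 7 at 15 reads and was likewise not listed in the enzyme-only library. ENSG00000291210 had 3 near positions out of 13 at 92 reads and none of 2 at 81 reads, and in ENSG00000291044 all 3 RBFOX2 positions, at 34 reads, were near. LINC01003 had 3 near positions out of 12 at 64 reads and none of 5 at 33 reads. ZNF8-ERVK3-1, a read-through locus that also covers the protein-coding ZNF8 and ERVK3-1, had 3 near positions out of 31 at 397 reads and none of 14 at 389 reads. The list of near positions with at least 2 converted reads also held SNHG6, a host of a small nucleolar RNA, with 2 near positions out of 9 at 34 reads with RBFOX2 and none of its 1 position at 37 reads with enzyme alone.

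The base before the edited cytosine was A or U in 72.3% (70.1 to 74.4%) of unshared exonic positions in lncRNA loci of the RBFOX2 library and in 63.7% (61.1 to 66.2%) of the enzyme-only library, against 45.4% and 44.6% of the exonic cytosines. Protein-coding loci had 71.8% and 63.9%. Among positions with at least 2 converted reads the share was 82.3% (72.1 to 90.0%) in the RBFOX2 library and 80.0% (68.2 to 88.9%) in the enzyme-only library, and these intervals overlap. In lncRNA loci of the RBFOX2 library the ratio near UGCAUG was 1.68 (1.27 to 2.17) at positions after A or U. After G or C it was 1.81 (1.11 to 2.76), from 20 near positions. Protein-coding loci had 1.66 (1.60 to 1.71) and a lower 1.18 (1.11 to 1.26). The lncRNA intervals included both of these values and are too wide to tell whether the ratio depends on the base before. Positions also leaned to the 3′ end of the merged exons, which were cut into 3 equal parts. In the RBFOX2 library 41.9% (39.6 to 44.2%) lay in the 3′ part. In the enzyme-only library 511 of 1420 did (33.5 to 38.5%), where 29.8% of the exonic cytosines lay.

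Numbers of positions were then compared between the libraries locus by locus, for the 34 lncRNA loci with at least 20 unshared positions. The log2 ratio of unshared positions, RBFOX2 over enzyme-only, was scaled by all unshared positions of the libraries, 109357 and 91111. Its median was 0.06 over the lncRNA loci and 0.08 over all 3604 loci of this size. It was over 1 in 5 lncRNA loci, 14.7%, and 16.8% of all loci were over 1. It was under -1 in 7, 20.6%, and 14.6% of all loci were under -1. Neither share of the lncRNA loci stands far from the background of all loci. Counting intervals lay above 0 in 3 of the 34 loci, 8.82% against 15.2% of all loci, and below 0 in 5, 14.7% against 14.5%. The 3 were NORAD, NUTM2A-AS1 and ENSG00000270659, which had 3 reads and no listing in the enzyme-only library.

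**Figure D2:**
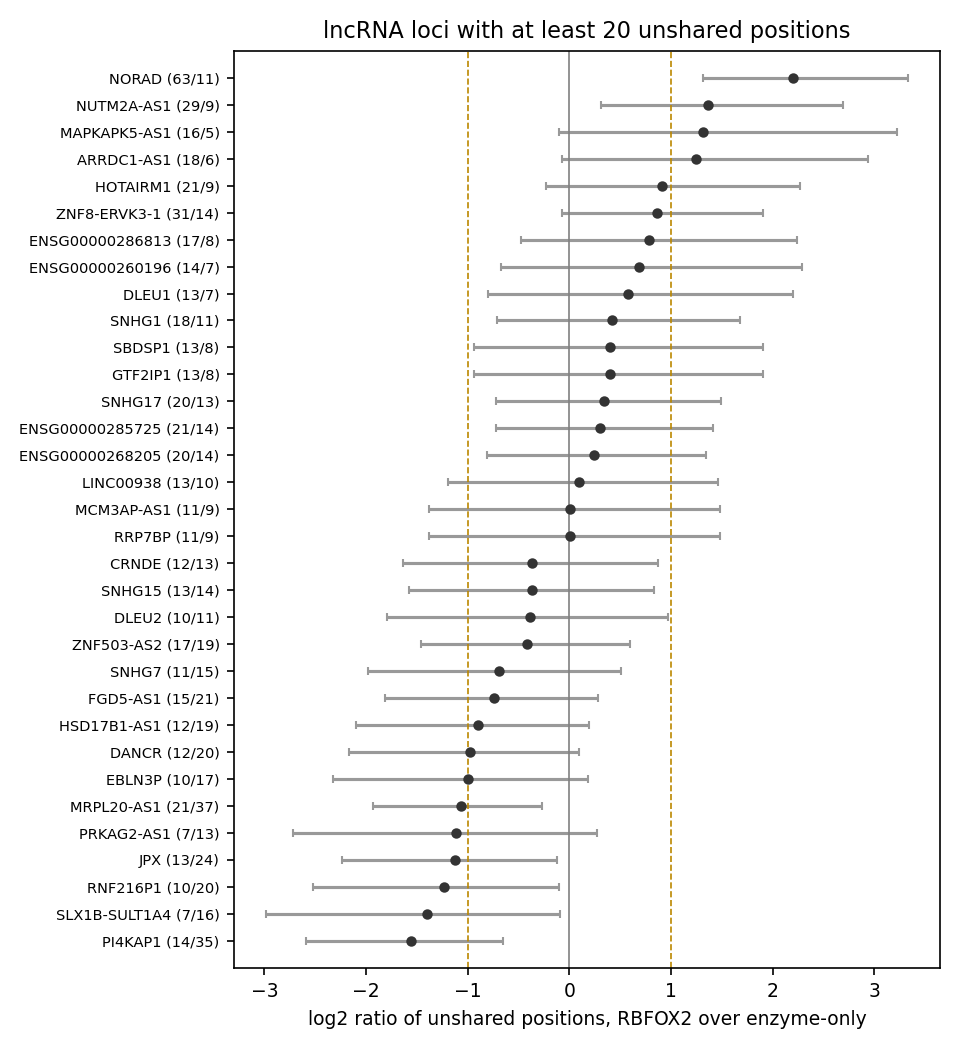
Log2 ratio of unshared edited positions, RBFOX2 over enzyme-only, for the 33 lncRNA loci with at least 20 such positions that were listed in both tables. Numbers after the names are the unshared positions in the RBFOX2 and the enzyme-only library, bars are 95% intervals from counting, and dashed lines mark 2-fold. NORAD stands highest at 2.20 and PI4KAP1 lowest at -1.56.

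NORAD had the highest ratio of the 33 loci listed in both tables. Its model was 1 exon of 5337 nt at chr20:36045624-36050960 on the minus strand, with 929 cytosines and no other annotated gene on that strand. The RBFOX2 library listed 66 positions at 197 reads and the enzyme-only library 14 at 158 reads. Unshared positions numbered 63 and 11, a log2 ratio of 2.20 (1.32 to 3.33), which was number 90 of the 3604 loci (the top 2.50%). Converted reads summed over the unshared positions were 38.6 per 100 reads with RBFOX2 and 7.59 with enzyme alone. EditsC was 7.10% and 1.51%.

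NORAD's edits in the RBFOX2 library were spread along the RNA, with few toward its 5′ end, and had no UGCAUG to lie near. Only this hexamer was searched, not the secondary RBFOX2 motifs that the paper also counts. Read coverage along the RNA is not known. Of 5 equal parts of the exon, the one at the 5′ end held 4 of the 63 positions and 32.6% of the cytosines. The next parts held 17, 14, 10 and 18 positions. Of the 63 positions, 11 had at least 2 converted reads, and 2 had 3, at 36049885 and 36047481, which lay 1076 and 3480 nt from the 5′ end. The enzyme-only library had 1 position with 2 converted reads, 36048340. A or U preceded 51 of the 63 positions, 81.0% (69.1 to 89.8%), and 10 of the 11 in the enzyme-only library.

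**Figure D3:**
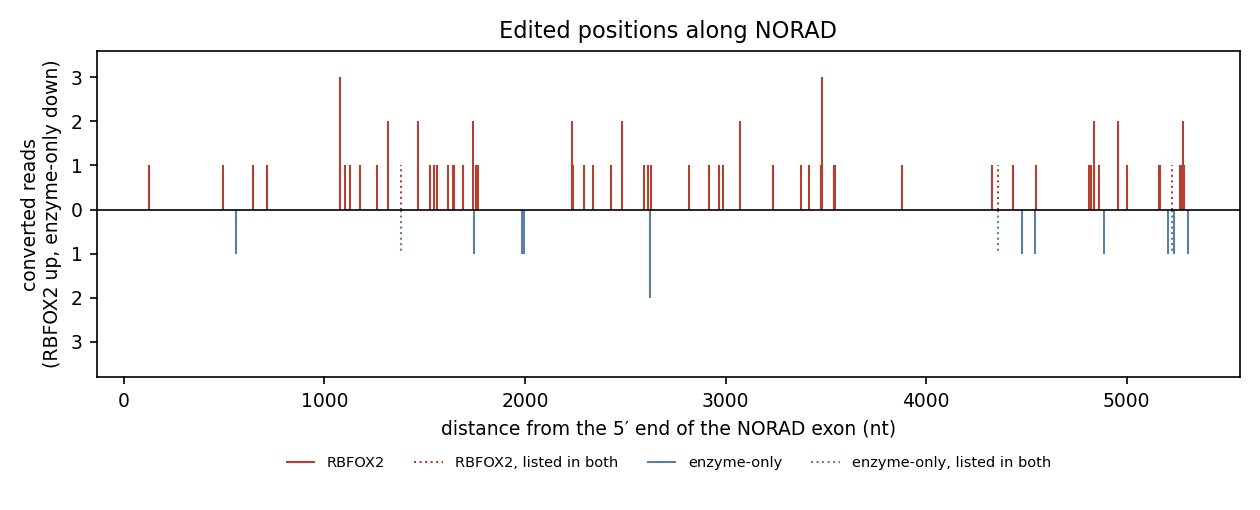
Edited positions along the exon of NORAD by distance from its 5′ end in nt, with the number of converted reads upward for the RBFOX2 library (197 reads) and downward for the enzyme-only library (158 reads). Dotted lines are positions listed in both libraries. The RBFOX2 positions run along the whole RNA, with 4 of the 63 unshared ones in the first of 5 equal parts.

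Of the other loci at the upper end, NUTM2A-AS1, antisense to NUTM2A, had 29 unshared positions at 342 reads with RBFOX2 and 9 at 325 reads with enzyme alone, a log2 ratio of 1.37 (0.31 to 2.69). However, 7 of the 29 and 1 of the 9 lay outside the locus, between 79717386 and 79793221 on chromosome 10, within its paralog NUTM2B-AS1. Within the exons of the locus 22 and 8 positions were left, and the ratio was 1.14 with an interval that includes 0 (-0.03 to 2.57). MAPKAPK5-AS1 had 16 and 5 unshared positions at 98 and 81 reads (1.32, -0.10 to 3.22), and ARRDC1-AS1 had 18 and 6 at 181 and 143 reads (1.25, -0.07 to 2.94). Both intervals include 0. HOTAIRM1, a lncRNA of the HOXA cluster, had 21 and 9 (0.91, -0.23 to 2.27).

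ENSG00000270659 was over 1 as well, but through 20 positions on 3 reads with RBFOX2 and no listing with enzyme alone, so no fold is given. All 20 positions had 1 converted read and followed A or U, and at least 1 of the 3 reads must have carried 7 or more of them. ADGRB3-DT was similar, with 13 positions on 3 reads, 12 of them after A or U. Loci with at least 5 unshared positions and at least 3 per read were rare in either class. They were 3 of 445 lncRNA loci in the RBFOX2 library (0.674%, 0.139 to 1.96%) and 6 of 8433 protein-coding loci (0.0711%, 0.0261 to 0.155%). In the enzyme-only library they were 2 of 438 lncRNA loci, RAMP2-AS1 and SPECC1-DT, and 3 of 8359 protein-coding loci (0.0359%). Each of these lncRNA loci had at most 3 reads, and 57 of the 445 in the RBFOX2 library had 1 to 3 reads. LncRNA loci were shallower than protein-coding loci, and the part of depth in these shares was not tested.

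At the lower end, PI4KAP1, a lncRNA derived from a copy of the lipid kinase gene PI4KA, had 14 unshared positions at 103 reads with RBFOX2 and 35 at 115 reads with enzyme alone, a log2 ratio of -1.56 (-2.59 to -0.65). Here 8 of the 35 lay in its paralog PI4KAP2, between 21473098 and 21477148 on chromosome 22, and within the exons of the locus the ratio was -1.19 (-2.26 to -0.23). MRPL20-AS1 had 21 and 37 at 273 and 305 reads (-1.07, -1.93 to -0.27). JPX, a lncRNA of the X-inactivation centre, had 13 and 24 at 323 and 294 reads (-1.12, -2.24 to -0.12). RNF216P1 (10 and 20) and SLX1B-SULT1A4 (7 and 16) also had intervals below 0, at -1.23 and -1.40, and both overlapped protein-coding genes. PRKAG2-AS1 (7 and 13), EBLN3P (10 and 17) and DANCR (12 and 20) had intervals that include 0.

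The lncRNA loci were also grouped by symbol, and the groups differed in depth. The 18 hosts of small nucleolar RNAs were deep, at a median of 134 reads in the RBFOX2 library, and had 144 positions with RBFOX2 and 110 with enzyme alone, or 42.2 and 36.7 per 1000 reads. The 79 divergent loci were shallow, at a median of 14.5 reads, and had 132 and 124 positions per 1000 reads. Shallow loci enter these sums only where a position was listed, which raises their positions per read. Scaled to the libraries, the log2 ratio of unshared positions was 0.15 (-0.23 to 0.54) for the small nucleolar RNA hosts, -0.11 (-0.32 to 0.09) for the 138 antisense loci, 0.04 (-0.30 to 0.39) for the divergent loci and 0.02 (-0.37 to 0.42) for the 57 LINC loci. For 8 lncRNAs with a described role (CRNDE, DANCR, HOTAIRM1, JPX, NEAT1, NORAD, OIP5-AS1 and PURPL) it was 0.50 (0.09 to 0.92), with 63 of the 136 RBFOX2 positions in NORAD. Without NORAD the direction turned, at -0.18 (-0.68 to 0.31), so that NORAD decided this value. HOTAIR, which is not on that list, was listed in the enzyme-only library alone, with 10 positions at 31 reads. Over all 618 loci it was 0.03 (-0.07 to 0.13).

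**Figure D4:**
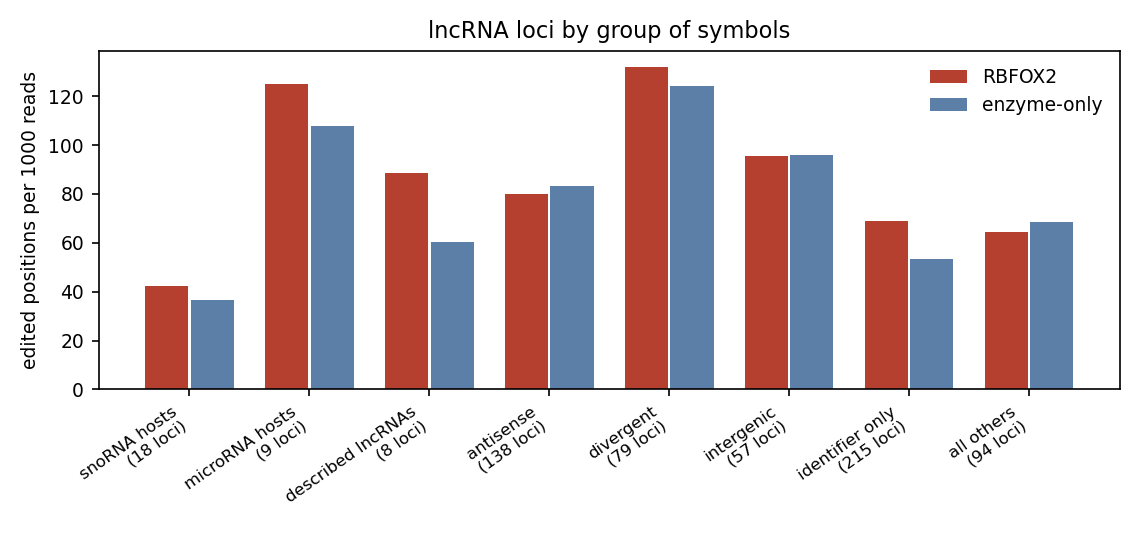
Edited positions per 1000 reads in lncRNA loci grouped by symbol, for the RBFOX2 and enzyme-only libraries, with the number of loci in parentheses. Each bar is 1 library, so there are no error bars. The small nucleolar RNA hosts are lowest, at 42.2 and 36.7, and the divergent loci highest, at 132 and 124.

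Proximity to UGCAUG was counted in the same groups, whose RBFOX2 intervals overlap. Divergent loci had 10 near positions out of 157 in the RBFOX2 library, a ratio of 2.74 (1.33 to 4.91), and 7 of 130 in the enzyme-only library (1.87, 0.762 to 3.75). In the RBFOX2 library they lay in AP1AR-DT, DPH5-DT, MAP4K3-DT, RNASEH1-DT, RNF32-DT, TMEM161B-DT and WASL-DT. In the enzyme-only library they lay in GTSE1-DT, ISL1-DT, MCPH1-DT, NUP50-DT, ST3GAL1-DT and ZC3H12A-DT. Only 22 of the 79 divergent loci were listed in both tables, so these names are not compared between the libraries. The 215 loci without a symbol had 34 of 495 (1.87, 1.31 to 2.58) and 9 of 371 (0.849, 0.390 to 1.59). Antisense loci had 8 of 398 and 8 of 348, ratios of 1.68 (0.727 to 3.27) and 1.83 (0.795 to 3.57). The 9 microRNA hosts had 3 near positions out of 24 in the RBFOX2 library, 2 in MIR99AHG and 1 in MIR762HG, and none of 15 in the enzyme-only library. With RBFOX2 the small nucleolar RNA hosts had 3 of 136 (1.28, 0.265 to 3.65) and the LINC loci 5 of 120 (1.26, 0.414 to 2.87). The lncRNAs with a described role had 1 of 136 (0.760, 0.0192 to 4.17), and all other loci had 11 of 298 (1.20, 0.604 to 2.12). These intervals include 1. With enzyme alone the same groups had none of 102, none of 99, none of 80 and 5 of 275.

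Among the hosts of small nucleolar RNAs, few edits lay in the small RNAs themselves. Of 144 RBFOX2 positions and 110 enzyme-only positions, 1 each lay within an annotated small nucleolar RNA, where 6.09% of the exonic cytosines of these loci lay. Reads are those of whole loci, so how deeply the small RNAs were covered is not known. The share of cytosines is therefore not an expected share of edits. GAS5 is a host too, but no annotated small nucleolar RNA was counted in it, and the reason was not tested. Its 13 RBFOX2 positions are among the 144. SNHG17 had 20 and 13 unshared positions at 156 and 147 reads, and SNHG1 had 18 and 11 at 154 and 147 reads. SNHG15 had 13 and 14, SNHG7 had 11 and 15, and SNHG10 had 9 and 10. All 5 intervals of the log2 ratio include 0. SNHG12 (8 and 1 at 58 and 72 reads) and SNHG11 (4 and 10 at 90 and 77 reads) had few positions. SNHG29, the deepest host at 990 and 939 reads, had 6 and 4. SNHG16 had 7 and 2, SNHG5 had 5 and 3, SNHG20 had 6 and 1, SNHG30 had 3 and 5, SNHG8 had 3 and 4, and EPB41L4A-AS1 had 1 and 5. SNHG32 and ZFAS1 were listed in the enzyme-only library alone, with 1 and 2 positions.

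GAS5, a host of small nucleolar RNAs that accumulates in arrested cells, had 13 positions with 1 converted read each at 491 reads with RBFOX2. GAS5 was not listed in the enzyme-only table, so its reads there are not known. Over 500 reads, positions with 1 converted read are not listed. Whether GAS5 differed between the libraries can therefore not be told from the missing listing. NEAT1, the scaffold RNA of nuclear paraspeckles, had 9 positions at 230 reads with RBFOX2 and 2 at 312 reads with enzyme alone, a log2 ratio of 1.66 (-0.37 to 5.16). None of these positions of GAS5 and NEAT1 was near UGCAUG. MALAT1, an abundant nuclear lncRNA, had an isoform model of 15 isoforms but no listed position in either library. Loci without a position have no read number, so how deeply each library covered MALAT1 is not known.

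Positions in lncRNA loci lay outside the exon models of their locus more often than those in protein-coding loci. In the RBFOX2 library 4.74% (3.85 to 5.77%) of lncRNA positions did, against 0.712% (0.665 to 0.762%) of protein-coding positions. The enzyme-only library gave 5.73% (4.66 to 6.97%) and 0.805% (0.750 to 0.863%). Of the 94 such positions in the RBFOX2 library, 57 lay elsewhere on the same chromosome, beyond the ends of the locus, 35 lay in the exons on the other strand, and 2 lay in introns. In the enzyme-only library 64 of 94 lay elsewhere. Distant positions were found in 34 loci over both libraries, NUTM2A-AS1 and PI4KAP1 among them, and none lay on another chromosome.

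Positions listed in both libraries were 6.86% (5.79 to 8.07%) of the lncRNA positions of the RBFOX2 library, against 10.5% (10.3 to 10.7%) in protein-coding loci. Loci whose symbols end as those of pseudogenes do, 37 in all, had more, 17.9% (12.8 to 23.9%), while the remaining lncRNA loci had 5.76% (4.73 to 6.94%). A or U preceded 61.0% (52.3 to 69.3%) of the shared positions and 71.8% (69.7 to 73.9%) of the unshared positions in the RBFOX2 library, and G followed 25.0% (18.0 to 33.1%) and 9.75% (8.44 to 11.2%). At 10 or more reads in both libraries there were 120 shared positions, and 12 of them, in 10 loci, were edited in over 10% of the reads of both libraries. In ANAPC1P2, 25 of 56 reads were converted at 1 position with RBFOX2 and 28 of 56 with enzyme alone. In GLIDR, 16 of 69 and 15 of 58 were. The part of genomic variants in these values was not tested.

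Some of the deepest loci assigned to a lncRNA also held a protein-coding gene. In all 42 of the 618 loci overlapped the exons of one on the same strand. ENSG00000264112, at 1524 and 1313 reads, covered SRSF1 and had 8 and 10 positions, and ENSG00000276672, at 695 and 625 reads, covered RFC3 and had 7 and 9. ENSG00000286813 covered MTHFS and had 17 and 8 unshared positions at 251 and 246 reads. Reads of the lncRNA and of the coding gene cannot be told apart in these loci. Without the 42 loci the ratio near UGCAUG was 1.76 (1.38 to 2.21) with RBFOX2 and 0.902 (0.591 to 1.32) with enzyme alone. Without NORAD it was 1.71 (1.35 to 2.13) and 0.918 (0.617 to 1.31). Without the loci with pseudogene symbols it was 1.84 (1.44 to 2.31) and 1.00 (0.664 to 1.45), and these intervals overlap. In loci that overlapped no other gene it was 1.96 with RBFOX2 and 1.23 with enzyme alone.

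Of the remaining lncRNA loci with most reads or positions, the deeper of the ENSG00000268205 loci had 20 and 14 unshared positions at 51 and 61 reads, and ZNF503-AS2 had 17 and 19 at 209 and 206 reads. DLEU2, at 400 and 358 reads, had 10 and 11. DUXAP8, at 637 and 575 reads, had 1 and 7, and ENSG00000290832, at 712 and 630 reads, had 2 and 4, both at a depth where at least 2 converted reads were needed.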

How the data were processed

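C-to-U edit tables of 2 libraries and a table of isoform models were used. According to the study's methods, the authors aligned full-length PacBio reads to hg38 with pbmm2 and called edits with their own code. The labels name an Iso-Seq kit and the methods another kit, and how the isoform models were collapsed is not given in the sources used here. At each position the tables the authors deposited hold a count of converted reads, a count of reads of the whole locus and the edit fraction, which is their quotient and was above 0.002 throughout. A deposited confidence fraction per position was not used. Since reads are those of the locus, a position of 1 isoform among several has an understated fraction.

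Each of the 225811 table entries fell on a cytosine of hg38, read on its strand. Genes came from GENCODE 44 by same-strand exonic overlap (bedtools 2.31.1). Positions listed at more than 1 locus were counted once. The dbSNP filter of the study was not repeated. Expected shares near UGCAUG were means over the sites of the share among all exonic cytosines of their locus. Log2 ratios used a pseudocount of 0.5 and loci with at least 20 unshared sites, and called a 2-fold difference. No p-value was computed, each group being 1 library, and intervals (scipy 1.17.1) cover counting error only. The calculations were tested on simulated data. Loci, gene groups and tests were chosen with earlier results of these data known. The text names GAS5, MALAT1, NEAT1 and the small nucleolar RNA hosts, the 8 highest and 8 lowest ratios, the 10 loci with most reads and with most positions, and loci with a repeatedly edited position near UGCAUG. The dense loci, the pseudogene symbols, the distant positions and other names were chosen after values were seen. XIST and its antisense locus are not described.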

Additional observations from a re-analysis of the deposited data

How the results depend on the processing

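No paired analysis was possible because each group has 1 library, and the label numbers 1 and 2 are not shared. Of 189 alternatives, 151 left a value within its interval or a count within 1.5 times, 37 moved it and 1 reversed it, the ratio of the lncRNAs with a described role, which was -0.18 without NORAD (chosen after seeing the data). The 72 alternatives for 24 named loci kept the sign, and 70 kept the 2-fold call. EBLN3P lost it with a pseudocount of 1, at -0.97, and SLX1B-SULT1A4 fell to 18 positions in its exons, under the minimum of 20. Values follow as RBFOX2, then enzyme-only. In loci that overlapped no other gene, positions fell to 1137 and 941, their share of all positions to 0.933% and 0.908%, and those with at least 2 converted reads to 4.40% and 3.93%, while positions per 1000 reads rose to 110.3 and 105, the RBFOX2 share in the 3′ part of the exons was 38.8%, and 3 loci were under -1. With at least 2 converted reads, 130 and 118 positions were left, 0.642% and 0.965% of all such positions. A or U then preceded 82.3% and 80.0%, the RBFOX2 share in the 3′ part was 39.2%, the RBFOX2 ratio near UGCAUG was 3.95, and the enzyme-only share outside exons was 0.847%. With 0.5 or more of the exonic bases in the gene, the share of all positions was 1.45% and 1.44%. Without positions of both libraries, positions per 1000 reads were 67.5 and 60.2, and 4.44% and 4.39% had at least 2 converted reads. At 20 to 500 reads in both libraries these were 5.48% and 5.89%. A window of 20 nt gave an RBFOX2 ratio of 2.18. With at least 10 positions, 29 of 94 loci were over 1 (30.9%, and 19.4% of all 5594 loci) and 21 under -1 (22.3%, and 17.2% of all). Chosen after seeing the data, loci that overlapped no protein-coding gene held 1.47% and 1.43% of all positions, at 81.6 and 74.7 per 1000 reads. Without pseudogene symbols, also chosen so, the shares were 1.47% and 1.39%, and 4 loci were under -1. The cause of these moves was not tested. At a median of 23.0 reads a locus, counting intervals are wide.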

Other observations

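Positions outside the exon models of lncRNA loci, with those of both libraries left out, were counted near UGCAUG without an expected share. In the RBFOX2 library 1 of 82 was, 1.22% (0.0309 to 6.61%), and in the enzyme-only library 4 of 83 were, 4.82% (1.33 to 11.9%). The intervals overlap.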
